A study of Mus musculus with 18 samples.

Results

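A set of 10 imprinted genes that are known for their roles in fetal growth were followed in kidneys that overexpressed the RNA-binding protein LIN28A in the nephrons. The members were *H19*, *Igf2*, *Igf2r*, *Dlk1*, *Meg3*, *Peg3*, *Mest*, *Cdkn1c*, *Grb10* and *Plagl1*, and they were taken by gene symbol, 1 row each, from a table of 49585 genes. All 10 passed the filter on low values, which left 16984 genes for testing. Kidneys of mice with the genotype Lox-stop-Lox-TetOn-*Lin28A*; Six2Cre were sampled after 1, 2 and 5 weeks of doxycycline (Dox) and are called *Lin28A* OE kidneys. Kidneys of mice that carried Lox-stop-Lox-TetOn-*Lin28A* but no Six2Cre received the same Dox (1 g/L in the drinking water) for the same times and are called control kidneys. Each of the 6 groups had 3 libraries of polyA-selected RNA from whole kidney. Six2Cre is active in the progenitors of the nephron, so only the nephron epithelium can induce the transgene, and the collecting duct, stroma, vessels and immune cells of an OE kidney are not targeted. Every animal carried the inducible transgene and drank Dox, and the labels give neither age nor sex. The labels number the libraries of a group as replicates and do not say that each came from its own animal, so p-values measure the spread between these libraries.

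Imprinted genes are transcribed mainly from the allele of 1 parent. As background, *H19*, *Meg3*, *Igf2r*, *Cdkn1c* and, in most tissues, *Grb10* are maternally expressed, whereas *Igf2*, *Dlk1*, *Peg3*, *Mest* and *Plagl1* are paternally expressed. Many of them are abundant in the embryo and placenta and are shut down in most tissues after birth. The paternal set is known mostly for genes that promote growth, such as the growth factor gene *Igf2*, and the maternal set for genes that restrain it, such as *Igf2r*, whose receptor clears IGF2, and *Cdkn1c*, which encodes the cell cycle inhibitor p57. LIN28A blocks the maturation of let-7 microRNAs and binds many mRNAs directly. The reads were summed over both alleles, so these data hold levels and not parental origin.

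Of the members, *H19*, *Igf2*, *Mest* and *Meg3* also carry microRNAs in their transcription units. The mature sequences of a miRNA gene of each host are shown because the host transcripts were among the members that moved most. They are given 5′ to 3′ from RefSeq on GRCm38.p6, with the seed (bases 2 to 8) in capitals, and let-7a-5p is added for comparison.
miR-675-5p, in *H19* on chromosome 7: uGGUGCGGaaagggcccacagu
miR-675-3p, in *H19* on chromosome 7: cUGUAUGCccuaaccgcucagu
miR-483-5p, in *Igf2* on chromosome 7: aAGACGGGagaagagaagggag
miR-483-3p, in *Igf2* on chromosome 7: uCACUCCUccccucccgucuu
miR-335-5p, in *Mest* on chromosome 6: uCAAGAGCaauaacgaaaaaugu
miR-335-3p, in *Mest* on chromosome 6: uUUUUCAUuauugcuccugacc
miR-770-5p, in *Meg3* on chromosome 12: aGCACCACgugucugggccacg
miR-770-3p, in *Meg3* on chromosome 12: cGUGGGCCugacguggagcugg
let-7a-5p, on chromosome 13: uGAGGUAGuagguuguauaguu
The 8 hosted miRNAs shown had 8 different seeds, and 0 of them had the seed of a let-7 miRNA. Another annotated miRNA gene, *Mir1906-1*, shares 80 exonic bases with *Meg3* on the same strand and was not included. PolyA-selected libraries of this kind do not measure mature miRNAs, so the levels below are those of the host transcripts.

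The letters CTACCTC, which pair with the let-7 seed, were searched on the transcript strand in the longest annotated 3′ UTR of each member (GRCm38, GENCODE vM21). *Igf2r* and *Peg3* each held 1 match, *Cdkn1c*, *Grb10*, *Igf2*, *Dlk1*, *Mest* and *Plagl1* held 0, and the non-coding *H19* and *Meg3* have no UTR. Of 21028 genes with a 3′ UTR, 9.02% held a match. The median UTR of these genes had 960.5 bases, whereas that of *Igf2r* had 1304 and that of *Peg3* 3614. The other members ranged from 688 (*Cdkn1c*) to 3050 bases (*Igf2*). The share was not matched for length. The matching stretches are shown with the 7 pairing bases in capitals, beside those of *Igf2bp1* (the first of 4), *Igf2bp2* and *Igf2bp3*, which encode binding proteins of *Igf2* mRNA and are described among the genes that act with IGF2.
*Igf2r*, chr17:12683026-12683054, minus strand: tgctccgtgccCTACCTCatctctgtagt
*Peg3*, chr7:6706873-6706901, minus strand: tgttctgtcccCTACCTCttagatagtcc
*Igf2bp1*, chr11:95961768-95961796, minus strand: tgcgaagtaaaCTACCTCaaggtgtgaag
*Igf2bp2*, chr16:22059463-22059491, minus strand: acaaataaaagCTACCTCaggtgtttttt
*Igf2bp3*, chr6:49086777-49086805, minus strand: tttttactcaaCTACCTCaggtattcagt
A match is a run of letters and was not shown to be a site of action.

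Library size ranged between 21176911 and 26844887 reads in OE kidneys and between 21376177 and 28686369 reads in control kidneys. Levels below are normalized read counts, which are reads per gene divided by the library's size factor. *Lin28a*, which the reads do not split into transgene and endogenous gene, was between 41737 and 68744 in OE kidneys after 1 week, 52622 and 116461 after 2 weeks and 420 and 615 after 5 weeks, against 14.4 to 28.5 over all 9 control kidneys. The OE libraries of week 5 thus had far less *Lin28a* RNA than the earlier ones. The female-specific RNA *Xist* was above 100 normalized reads in 4 OE libraries (1 of week 1, 2 of week 2 and 1 of week 5) and 2 control libraries (1 of week 2 and 1 of week 5), so the sexes were not balanced over groups. Kidney epithelial and endothelial markers were present in every library. Of the 6 endothelial markers 5, 6 and 6 were lower in OE kidneys after 1, 2 and 5 weeks (median log2 fold change -0.64, -1.08 and -0.60). At these times 15.6%, 28.8% and 7.9% of all tested genes were lower (limma, adjusted p under 0.05). The 6 macrophage markers *Adgre1*, *Cd68*, *Lyz2*, *C1qa*, *C1qb* and *Csf1r* summed to 15728 to 18745, 15578 to 39416 and 8642 to 14157 normalized reads in OE kidneys of weeks 1, 2 and 5, against 2601 to 3681, 2707 to 3308 and 2538 to 3161 in control kidneys. The 6 podocyte markers summed to 10243 to 14619, 4063 to 6661 and 4865 to 7232 normalized reads in OE kidneys of weeks 1, 2 and 5. In control kidneys they summed to 12885 to 15641, 11717 to 13019 and 11635 to 14450. Of these 6 markers, 0, 1 and 0 were called higher and 0, 4 and 3 lower in limma after 1, 2 and 5 weeks. Their median log2 fold change was 0.07, -1.07 and -1.01. The shares of all tested genes called higher were 18.7%, 28.9% and 7.67%, beside the shares called lower given above. In whole-kidney RNA, fewer cells of a type and less RNA per cell cannot be told apart, and the part that this change in cell make-up has in the results below was not tested.

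Over the 10 members, 5 were higher and 0 lower in *Lin28A* OE kidneys after 1 week of Dox, 7 were higher and 2 lower after 2 weeks, and 3 were higher and 0 lower after 5 weeks (limma on log2(normalized count + 1), adjusted p under 0.05 over all genes, two-sided). Across all tested genes the share called higher was 18.7% and the share called lower 15.6% after 1 week, 28.9% and 28.8% after 2 weeks, and 7.67% and 7.9% after 5 weeks. The median log2 fold change of the members was 1.20, 1.49 and 0.11 after 1, 2 and 5 weeks, beside -0.02, 0.01 and 0.02 over all tested genes. edgeR and DESeq2, run on the whole reads recovered from the table, gave the same counts in each direction. When any 1 library of the compared groups was left out, limma called 4 to 6 members after 1 week. It called 7 to 8 after 2 weeks and 2 to 6 after 5 weeks. For the 0 lower members, 1 passed an unadjusted p of 0.05 in limma after 1 week (*Mest*) and 1 after 5 weeks (*Cdkn1c*). Of the 5 maternally expressed members, 3, 3 and 2 were higher and 0, 1 and 0 lower after 1, 2 and 5 weeks. Of the 5 paternally expressed ones, 2, 4 and 1 were higher and 0, 1 and 0 lower.

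**Figure D1:**
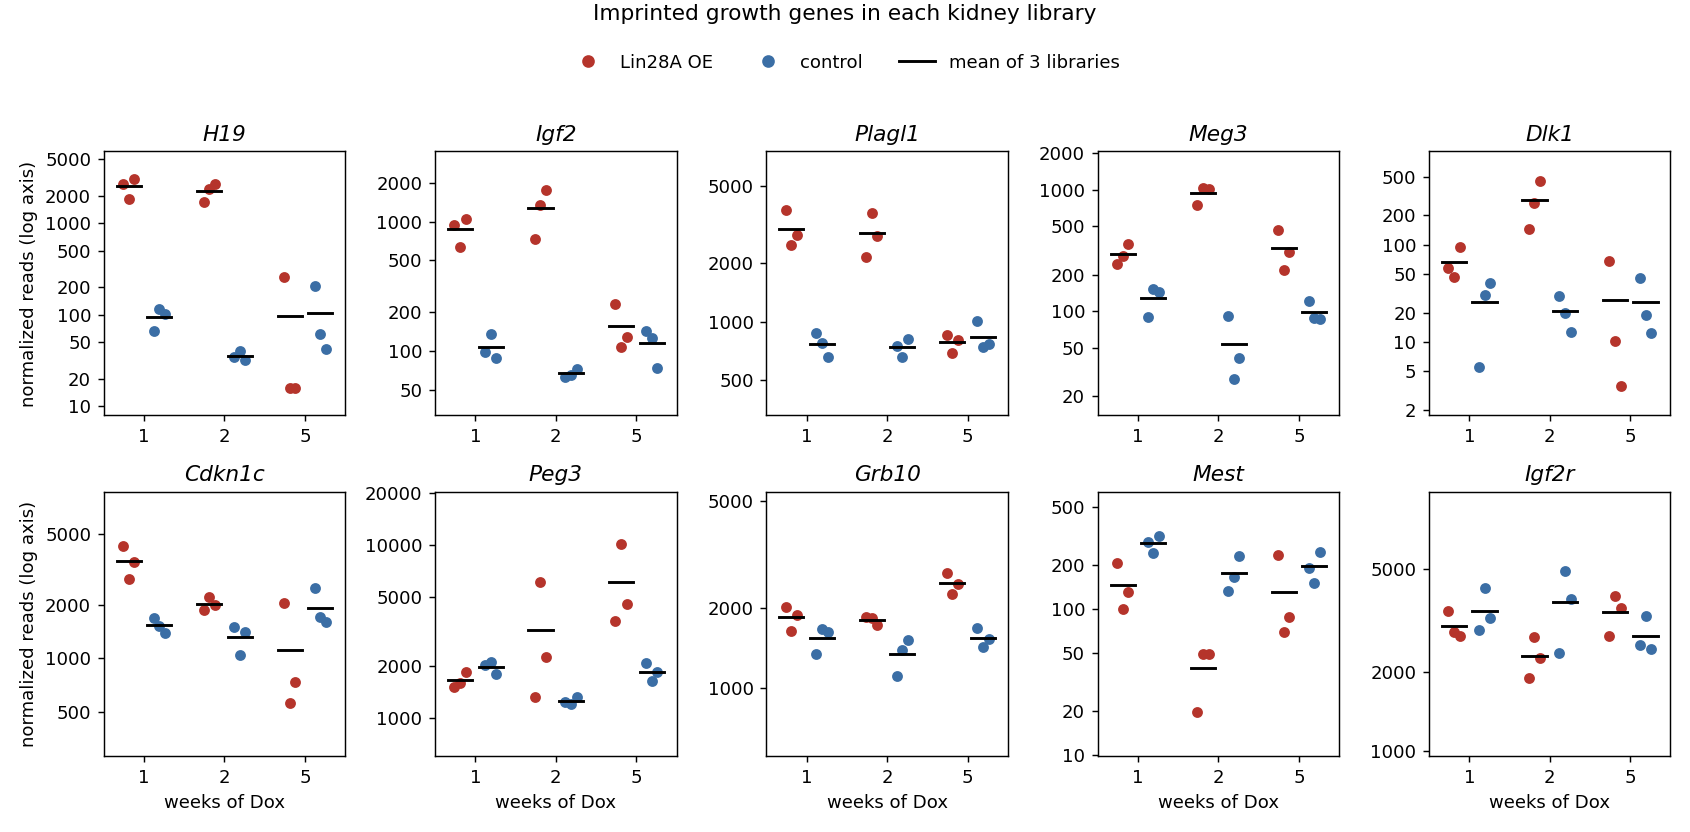
Normalized read counts (log axis, scale set per panel) of the 10 imprinted genes in each kidney library after 1, 2 and 5 weeks of Dox, with *Lin28A* OE libraries left of control libraries. Points are libraries and bars the mean of 3; *H19*, *Igf2* and *Plagl1* stand apart after 1 and 2 weeks and overlap after 5 weeks, whereas *Meg3* stands apart at every time.

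The locus of *H19* and *Igf2* lies on distal chromosome 7 (*H19*, chr7:142575529-142578143, minus strand; *Igf2*, chr7:142650766-142666816, minus strand; GRCm38). *H19* is a long non-coding RNA. After 1 week it had 2695, 1853 and 3039 normalized reads in OE kidneys, against 66.9, 115 and 101 in control kidneys. After 2 weeks it had 1705, 2352 and 2677 in OE kidneys, against 34.9, 40.0 and 31.9 in control kidneys. The lowest OE library was far above the highest control library at both times. The log2 fold change was 4.74 (SE 0.77, adjusted p = 0.000211 in limma) after 1 week and 5.92 (SE 0.77, adjusted p = 6.13e-06) after 2 weeks. After 5 weeks *H19* had 257, 15.9 and 15.8 in OE kidneys, against 206, 62.0 and 41.9 in control kidneys. Replicate 1 was the highest library of either group at that time, and the other OE libraries were below all control libraries. The log2 fold change was -0.98 (SE 0.77, 95% interval -2.60 to 0.65, adjusted p = 0.423 in limma), and it was -2.29 with adjusted p = 0.003 when replicate 1 of the OE group was left out.

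*Igf2* encodes the fetal growth factor IGF2. It had 939, 638 and 1040 normalized reads in OE kidneys after 1 week, against 98.1, 136 and 88.4 in control kidneys. After 2 weeks it had 729, 1355 and 1742 in OE kidneys, against 63.3, 65.6 and 71.8 in control kidneys. The groups did not overlap at either time, and the log2 fold change was 3.005 (SE 0.34, adjusted p = 8.2e-06 in limma) after 1 week and 4.15 (SE 0.34, adjusted p = 4.77e-08) after 2 weeks. After 5 weeks *Igf2* had 232, 108 and 128 in OE kidneys, against 144, 126 and 73.7 in control kidneys, and the groups overlapped (log2 fold change 0.42, 95% interval -0.30 to 1.14, adjusted p = 0.44 in limma). In the annotation 3596 of the 5723 exonic bases of *Igf2* are shared with the readthrough gene *Gm49394* on the same strand, so reads of that transcript cannot be told apart from those of *Igf2*.

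The ratio of these neighbours was also followed in each library. *H19* gave 2.87, 2.90 and 2.92 reads per *Igf2* read in OE kidneys after 1 week, against 0.68, 0.85 and 1.14 in control kidneys. After 2 weeks it gave 2.34, 1.74 and 1.54 in OE kidneys, against 0.55, 0.61 and 0.44 in control kidneys. Both RNAs were higher in OE kidneys at these times, and *H19* more so in each library. After 5 weeks the ratio was 1.10, 0.15 and 0.12 in OE kidneys, against 1.43, 0.49 and 0.57 in control kidneys. The ratio was computed after the levels were seen, was not corrected for length and was given no test.

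**Figure D2:**
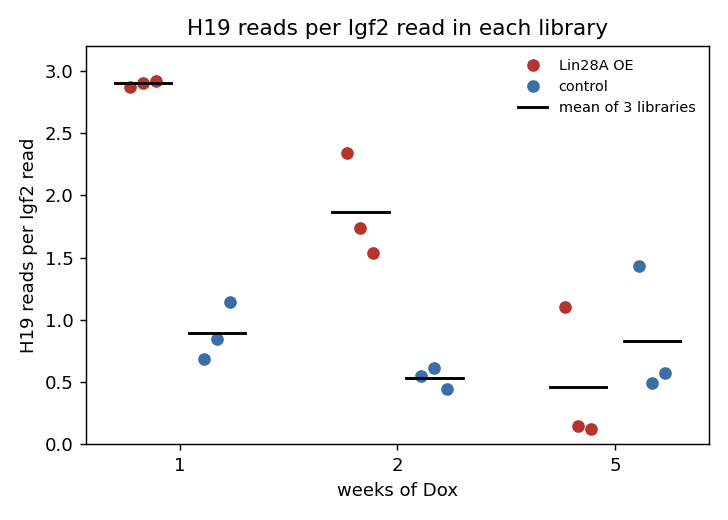
Reads of *H19* per read of *Igf2* in each kidney library by weeks of Dox, *Lin28A* OE libraries left of control libraries. The OE libraries sit between 2.87 and 2.92 after 1 week and between 1.54 and 2.34 after 2 weeks, above every control library of those weeks, and 2 of the 3 OE libraries of week 5 sit below all controls.

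*Cdkn1c* (chr7:143458339-143461050, minus strand), further along the same chromosome, encodes the cyclin-dependent kinase inhibitor p57. It had 4273, 2769 and 3489 normalized reads in OE kidneys after 1 week, against 1682, 1509 and 1390 in control kidneys (log2 fold change 1.18, SE 0.33, adjusted p = 0.0115 in limma). At 2 weeks *Cdkn1c* had 1870, 2216 and 1977 in OE kidneys, against 1500, 1037 and 1411 in control kidneys. The groups did not overlap, but the log2 fold change of 0.63 (95% interval -0.07 to 1.34) did not pass the test (adjusted p = 0.114 in limma). It was called higher with only the 2-week groups in the fit (adjusted p = 0.0128 in limma). At 5 weeks *Cdkn1c* had 2032, 563 and 736 in OE kidneys, against 2471, 1701 and 1602 in control kidneys. OE replicate 1 was within the control range and the other OE libraries were below it. The log2 fold change was -0.999 (95% interval -1.70 to -0.30, adjusted p = 0.0518 in limma). *Cdkn1c* was called lower without OE replicate 1 (-1.55) and with upper-quartile scaling (-1.03, adjusted p = 0.0435 in limma). A non-coding gene, *Gm44732*, overlaps 625 of the 2039 exonic bases of *Cdkn1c* on the opposite strand and had at most 0.912 normalized reads in any library.

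*Dlk1* and *Meg3* lie side by side on distal chromosome 12 (*Dlk1*, chr12:109452823-109463336; *Meg3*, chr12:109541001-109571726; plus strand). *Meg3*, a long non-coding RNA, was called higher in OE kidneys at all 3 times. It had 244, 282 and 359 normalized reads in OE kidneys after 1 week, against 89.2, 152 and 143 in control kidneys (log2 fold change 1.22, SE 0.36, adjusted p = 0.0156 in limma). The 2-week values of *Meg3* were 751, 1028 and 1009 in OE kidneys, against 91.7, 27.8 and 41.0 in control kidneys (log2 fold change 4.26, SE 0.36, adjusted p = 6.58e-08 in limma). The 5-week values were 463, 220 and 305 in OE kidneys, against 120, 87.5 and 87.0 in control kidneys (log2 fold change 1.68, SE 0.36, adjusted p = 0.00549 in limma). OE and control libraries did not overlap at any time. The call of week 1 was lost without OE replicate 3 (log2 fold change 1.07, adjusted p = 0.0675) or without control replicate 1 (0.98, adjusted p = 0.0742). The control kidneys of week 2 were themselves low, with a log2 difference of -1.38 to those of week 1 (unadjusted p = 0.00145, adjusted p = 0.592 in limma).

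*Dlk1* encodes a membrane protein related to the Notch ligands. It had 57.0, 46.7 and 94.4 normalized reads in OE kidneys after 1 week, against 5.57, 30.6 and 40.5 in control kidneys. The groups did not overlap, yet the log2 fold change of 1.65 (95% interval -0.14 to 3.43) did not pass the test (adjusted p = 0.145 in limma). At 2 weeks *Dlk1* had 146, 268 and 454 in OE kidneys, against 29.7, 20 and 12.5 in control kidneys (log2 fold change 3.67, SE 0.84, adjusted p = 0.00135 in limma). At 5 weeks *Dlk1* had 67.5, 10.3 and 3.52 in OE kidneys, against 45.4, 19.1 and 12.3 in control kidneys, and replicate 1 was again the highest of both groups. With as few as 4 reads behind a value at that time, no difference was detectable (log2 fold change -0.61, 95% interval -2.39 to 1.17, adjusted p = 0.676 in limma), and the sign turned in edgeR (0.10) and DESeq2 (0.08).

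*Plagl1* (chr10:13060504-13131694, plus strand) encodes the zinc finger transcription factor ZAC1. It had 3771, 2471 and 2792 normalized reads in OE kidneys after 1 week, against 876, 781 and 657 in control kidneys (log2 fold change 1.95, SE 0.19, adjusted p = 2.45e-06 in limma). At 2 weeks *Plagl1* had 2145, 3635 and 2771 in OE kidneys, against 754, 659 and 816 in control kidneys (log2 fold change 1.91, SE 0.19, adjusted p = 4.4e-07 in limma). The groups did not overlap, and the log2 fold changes of these 2 times differed by -0.04 (95% interval -0.62 to 0.54). At 5 weeks *Plagl1* had 857, 694 and 809.5 in OE kidneys, against 1008, 742 and 766 in control kidneys, and the interval of the log2 fold change spanned -0.49 to 0.33. ZAC1 binds GC-rich DNA such as GGGGCCCC, which reads the same on both strands. Of the 8 members with a RefSeq promoter entry (250 bases before to 50 after the start), 1, *Peg3*, held these letters, against 1.25% of 27025 genes. *H19* and *Cdkn1c* were not among the entries.

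**Figure D3:**
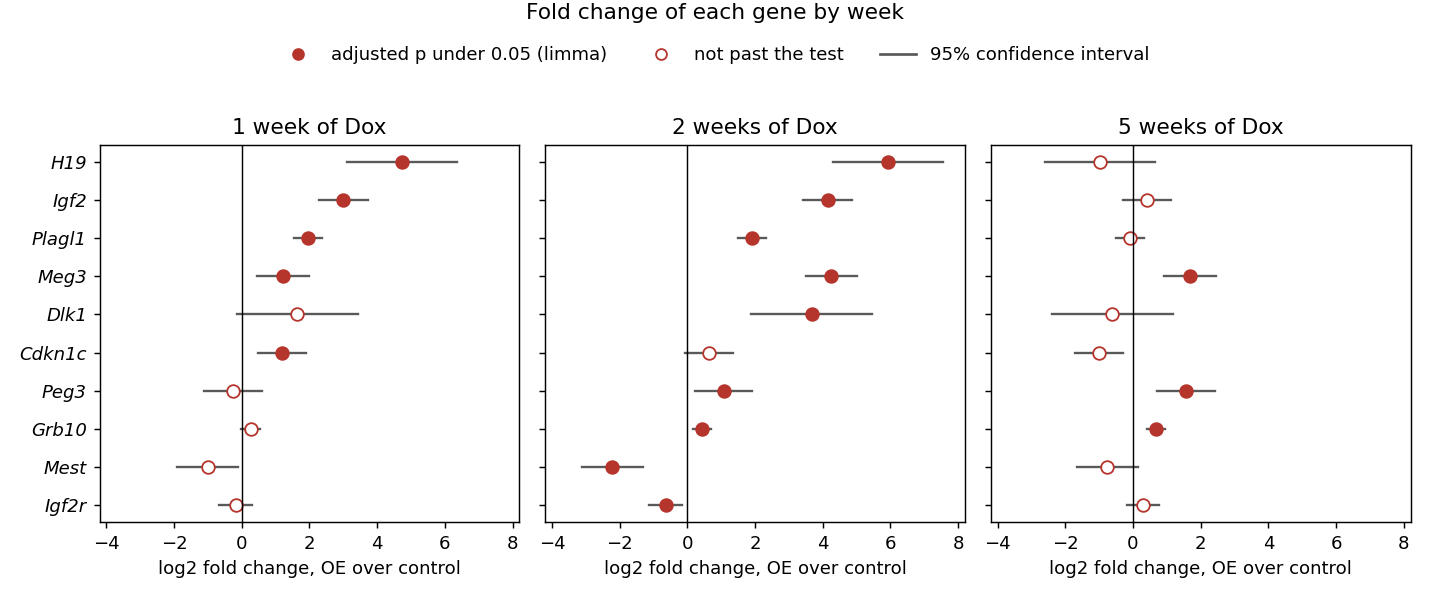
Log2 fold change of each imprinted gene in *Lin28A* OE against control kidneys after 1, 2 and 5 weeks of Dox, on the log2(normalized count + 1) scale, with 95% intervals from limma. Filled points passed the test; *H19* has the largest change after 2 weeks (5.92) and *Mest* the lowest (-2.22).

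*Grb10* and *Igf2r* act on growth factor signalling from the receiving side. *Grb10* (chr11:11930508-12038683, minus strand) encodes an adaptor that inhibits the insulin and IGF receptors. It had 2015, 1636 and 1882 normalized reads in OE kidneys after 1 week, against 1340, 1664 and 1624 in control kidneys, and the groups overlapped (log2 fold change 0.26, 95% interval -0.01 to 0.53, adjusted p = 0.129 in limma). At 2 weeks *Grb10* had 1844, 1833 and 1716 in OE kidneys, against 1116, 1394 and 1512 in control kidneys (log2 fold change 0.43, SE 0.13, adjusted p = 0.00772 in limma). At 5 weeks *Grb10* had 2697, 2241 and 2451 in OE kidneys, against 1679, 1423 and 1532 in control kidneys (log2 fold change 0.67, SE 0.13, adjusted p = 0.00247 in limma). These were small changes with little spread, and the groups did not overlap at the later times. *Igf2r* (chr17:12682406-12769664, minus strand) encodes the receptor that takes up IGF2 for degradation. It had 1908, 2732 and 2264 normalized reads in OE kidneys after 2 weeks, against 2382, 4901 and 3838 in control kidneys. The groups overlapped through control replicate 1, and the log2 fold change was -0.64 (SE 0.23, adjusted p = 0.0235 in limma). That call was lost in 4 of the fits that left out 1 library, and with only the 2-week groups in the fit (adjusted p = 0.066). After 1 week *Igf2r* had 3437, 2864 and 2753 in OE kidneys, against 2902, 4211 and 3238 in control kidneys. At 5 weeks *Igf2r* had 2750, 3917 and 3539 in OE kidneys, against 2543, 3302 and 2461 in control kidneys, and neither time passed the test (adjusted p = 0.575 and 0.416 in limma).

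*Peg3* (chr7:6703892-6730431, minus strand) encodes a zinc finger protein. It had 1523, 1608 and 1843 normalized reads in OE kidneys after 1 week, against 2040, 2113 and 1806 in control kidneys (log2 fold change -0.26, 95% interval -1.12 to 0.59, adjusted p = 0.652 in limma). At 2 weeks *Peg3* had 1333, 6129 and 2275 in OE kidneys, against 1243, 1209 and 1338 in control kidneys. OE replicate 1 was inside the control range and OE replicate 2 far above every other library of that week. The log2 fold change was 1.07 (SE 0.40, adjusted p = 0.0316 in limma), and 0.46 without OE replicate 2 (adjusted p = 0.223). The call was also lost when any 1 control library of that week was left out (adjusted p between 0.055 and 0.073). At 5 weeks *Peg3* had 3650, 10146 and 4613 in OE kidneys, against 2103, 1650 and 1845 in control kidneys, and the groups did not overlap. The log2 fold change was 1.58 (SE 0.40, adjusted p = 0.0146 in limma), and the call was lost without OE replicate 2 (1.14, adjusted p = 0.0803) or control replicate 2 (1.49, adjusted p = 0.055). The highest OE library of both weeks was 1 with *Xist* above 100. With the *Xist* level as a covariate the 2-week value was 0.89 (adjusted p = 0.062), and over libraries with *Xist* below 100 it was 0.07 (adjusted p = 0.80), where 1 OE library was left.

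*Mest* (chr6:30723547-30748465, plus strand) encodes a predicted hydrolase of the endoplasmic reticulum and had the lowest log2 fold change of the members. At 2 weeks *Mest* had 19.5, 49.0 and 48.6 normalized reads in OE kidneys, against 132, 166 and 230 in control kidneys (log2 fold change -2.22, SE 0.42, adjusted p = 0.000292 in limma). After 1 week it had 204, 99.2 and 131 in OE kidneys, against 287, 242 and 313 in control kidneys. The groups did not overlap at that time, but the log2 fold change of -1.01 (95% interval -1.91 to -0.11) missed the threshold (adjusted p = 0.0781 in limma). *Mest* of week 1 was called lower with only the 1-week groups in the fit (adjusted p = 0.0181) and without OE replicate 1 (adjusted p = 0.0477 in limma). At 5 weeks *Mest* had 233, 69.2 and 87.9 in OE kidneys, against 189, 150 and 245 in control kidneys. OE replicate 1 was within the control range and the other OE libraries were below it (log2 fold change -0.76, 95% interval -1.66 to 0.14, adjusted p = 0.247 in limma), and *Mest* was called lower without that library (-1.28, adjusted p = 0.029). The gene *Copg2* overlaps 912 of the 3945 exonic bases of *Mest* on the opposite strand. *Copg2* averaged 1168, 949 and 1412 normalized reads in OE kidneys of weeks 1, 2 and 5, against 1485, 1510 and 1584 in control kidneys. The counting is not stated to use strand, nor how it treated reads on exons of both genes. The effect of the overlap on the *Mest* counts is therefore not known.

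Replicate 1 of the OE group of week 5 was the highest of its group for *H19*, *Igf2*, *Meg3*, *Dlk1*, *Cdkn1c*, *Mest*, *Plagl1* and *Grb10*, and the lowest for *Peg3* and *Igf2r*. The 10 stromal and fibroblast markers summed to 120092 normalized reads in that library, against 38312 and 67186 in the other OE libraries of that week and 29575 to 40064 in control kidneys. Of these markers, 2 were higher (*Col1a1* and *Col1a2*) and 1 lower (*Meox1*) after 5 weeks, beside 7.67% and 7.9% of all tested genes. The *Meox1* call was lost without OE replicate 2 (adjusted p = 0.123 in limma), among other fits. Both collagen calls were lost without OE replicate 1 (adjusted p = 0.072 for *Col1a1* and 0.124 for *Col1a2* in limma), among other fits. When that library was left out, 6 of the 10 members were called after 5 weeks instead of 3, the added ones being *H19*, *Cdkn1c* and *Mest*, all lower. In the control group of week 5, replicate 1 was also the highest for *H19*, *Igf2*, *Meg3*, *Dlk1*, *Cdkn1c*, *Plagl1*, *Grb10* and *Peg3*. With both libraries left out, 5 members were called, with *H19* (-1.63, adjusted p = 0.0029) and *Cdkn1c* (-1.36, adjusted p = 0.00082) lower. The part of the stromal markers in this was not tested.

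**Figure D4:**
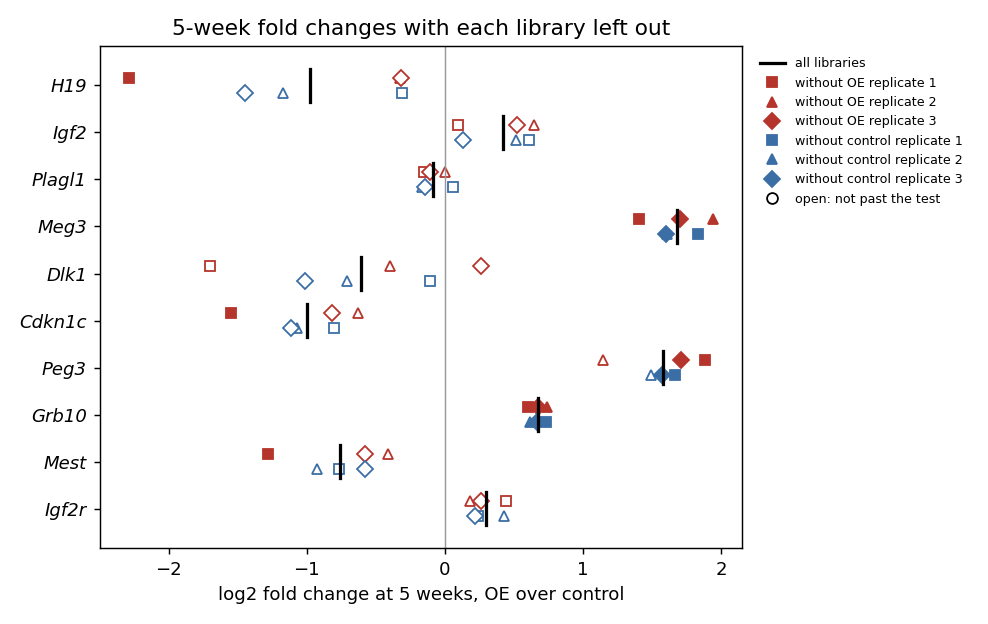
Log2 fold change of each imprinted gene in *Lin28A* OE against control kidneys after 5 weeks of Dox, with all libraries and with each library of that week left out. Leaving out OE replicate 1 moved *H19* to -2.29, *Cdkn1c* to -1.55 and *Mest* to -1.28, each called lower.

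Whether the change differed between the times was tested as the difference of log2 fold changes. Between 2 weeks and 1 week 1 member differed, beside 9.07% of all tested genes. This was *Meg3*, whose change was larger after 2 weeks by 3.04 (SE 0.51, adjusted p = 0.00316 in limma). Between 5 weeks and 1 week 4 members differed, beside 6.99% of all tested genes, and all were lower after 5 weeks. These were *H19* (-5.71, adjusted p = 0.00475), *Igf2* (-2.59, adjusted p = 0.00417), *Cdkn1c* (-2.18, adjusted p = 0.0109) and *Plagl1* (-2.03, adjusted p = 0.000495 in limma). *Peg3* was not called in this contrast (1.84, adjusted p = 0.0618), but it was called higher after 5 weeks in DESeq2 (1.98, adjusted p = 0.00925), with the *Xist* covariate (2.00, adjusted p = 0.0336), with only the groups compared (adjusted p = 0.0173), over libraries with *Xist* below 100 (1.34, adjusted p = 0.0119) and without OE replicate 1 of week 5 (2.14, adjusted p = 0.0337). Between 5 weeks and 2 weeks 7 members differed, beside 29.3% of all tested genes. *H19* (-6.90), *Dlk1* (-4.28), *Igf2* (-3.73), *Meg3* (-2.57), *Plagl1* (-1.99) and *Cdkn1c* (-1.63) were lower, with adjusted p between 5.15e-05 for *Igf2* and 0.0156 for *Cdkn1c* in limma, and *Igf2r* was higher (0.94, adjusted p = 0.0382). The *Igf2r* call was lost in 12 alternatives, with no filter (adjusted p = 0.0622), with upper-quartile scaling (0.0519), with only the groups compared (0.0639), without both 5-week libraries numbered 1 (0.054) and in 8 of the fits that left out 1 library (up to 0.105). Over libraries with *Xist* below 100, the calls of *Cdkn1c* between 5 weeks and 1 week (adjusted p = 0.0835) and of *Cdkn1c* (0.128) and *Dlk1* (0.154) between 5 and 2 weeks were lost, and *Mest* was called between 5 and 2 weeks (3.02, adjusted p = 0.0071), as it was in DESeq2 (1.59, adjusted p = 0.0305). These contrasts share control and OE libraries with each other and with the weekly ones. The times differ in the length of Dox and in the *Lin28a* level, and in these data the effects of both cannot be told apart.

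The control kidneys of different weeks gave 0 calls among the members in all 3 comparisons (limma, adjusted p under 0.05), with 0 in edgeR and 0 in DESeq2. Across all tested genes the share called was 0.0177% between 2 weeks and 1 week, 0% between 5 weeks and 1 week and 0.0883% between 5 weeks and 2 weeks. *Meg3* alone passed an unadjusted p of 0.05, between 2 weeks and 1 week and between 5 weeks and 2 weeks, and 0 members did between 5 weeks and 1 week. Without control replicate 1 of week 2, both *Meg3* differences passed the adjusted threshold (-1.85, adjusted p = 0.029 and 1.497, adjusted p = 0.0249 in limma).

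Levels of different genes were set side by side only as normalized reads per kilobase of exon. *Cdkn1c* was first of the 10 in each of the 6 groups, with 1722 ± 369 per kilobase in OE kidneys of week 1, against 749 ± 72.1 in control kidneys (SD, n = 3). *H19* was second in OE kidneys of week 1 (1028 ± 248) and week 2 (912 ± 201), and sixth or seventh in the OE kidneys of week 5 (39.1 ± 56.5) and in control kidneys (38.3 ± 10, 14.5 ± 1.67 and 42.0 ± 36.4 in weeks 1, 2 and 5). In OE kidneys of week 1 *Plagl1* (385 ± 86.6) and *Igf2r* (324 ± 39.4) followed, and their spreads overlapped. *Dlk1* was last or last but one in every group, at 51.1 ± 27.5 per kilobase or less.

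The genes whose log2 values over the 18 libraries were most like those of 3 members are given as a description, since all points share the same libraries and the same group differences. For *H19* these were *R3hcc1l*, *Zfp955b*, *Gpbp1*, *Usp13* and *AI597479* (Pearson's r between 0.95 and 0.96). For *Igf2* they were *Mylk2*, *Ccnj*, *Tjp1*, *Wasf2* and *Zfp568* (r between 0.96 and 0.98). The first of these, *Mylk2*, a muscle myosin light chain kinase gene, averaged 124, 308 and 4.48 normalized reads in OE kidneys of weeks 1, 2 and 5, against 0.727, 0 and 0.704 in control kidneys. For *Mest*, they were *Has3*, *Klhl7*, *Elovl2*, *Itga8* and *Esr1* (r between 0.95 and 0.97).

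Of 26 listed neighbours in the same imprinted clusters, 25 were in the table and 19 were tested, of which 3, 3 and 1 were higher and 5, 7 and 3 lower after 1, 2 and 5 weeks, with medians of -0.21, -0.06 and 0.02. Over all tested genes 18.7%, 28.9% and 7.67% were higher and 15.6%, 28.8% and 7.9% lower at these times. After 2 weeks edgeR called 6 of the neighbours higher and 8 lower, and DESeq2 4 higher and 9 lower. The non-coding RNAs *Rian* and *Mirg*, which follow *Meg3* on chromosome 12, were among the higher ones. *Mirg* had 30.8, 30.5 and 43.8 normalized reads in OE kidneys after 1 week, against 3.34, 1.09 and 0 in control kidneys. The log2 fold change of *Mirg* was 4.09 after 1 week and 4.67 after 2 weeks, and that of *Rian* 2.19 and 3.60 (adjusted p between 6.65e-06 and 0.0106 in limma). The 1-week call of *Rian* was lost without control replicate 1 (adjusted p = 0.0559). After 5 weeks *Rian* had 164, 29.0 and 38.7 in OE kidneys, against 67.6, 38.3 and 18.4 in control kidneys, and neither gene was called. *Cobl*, an actin nucleator gene beside *Grb10*, was higher after 1 and 2 weeks (0.98 and 1.22), and *Zim1*, beside *Peg3*, after 5 weeks (1.97, adjusted p = 0.00937). *Zim1* had 485, 971 and 667 normalized reads in OE kidneys of week 5, against 155, 176 and 189 in control kidneys, and like *Peg3* it was highest in OE replicate 2. The transporter genes *Slc22a18* near *Cdkn1c* (-1.53, -3.14 and -0.99) and *Slc22a2* near *Igf2r* (-1.55, -3.70 and -1.27) were lower at all 3 times. The 5-week call of *Slc22a2* was lost in 10 alternatives (adjusted p between 0.0512 and 0.195), edgeR among them (0.0673). *Slc22a2* encodes an organic cation transporter of the kidney tubule. The 6 kidney epithelial markers summed to 153759 to 196540, 68912 to 94863 and 151489 to 170651 normalized reads in OE kidneys, against 318717 to 360728, 374701 to 416578 and 297555 to 362630 in control kidneys. Of these 6, 3, 5 and 5 were called lower and 0 higher in limma after 1, 2 and 5 weeks. Among the calls lost when 1 library was left out were *Slc12a3* of week 1 (adjusted p = 0.148 without OE replicate 3) and *Slc12a1* of week 5 (adjusted p = 0.135 without control replicate 3).

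Genes that act with IGF2 were taken from a list of 19, all tested, of which 3, 4 and 4 were higher and 2, 8 and 1 lower after 1, 2 and 5 weeks, with medians of -0.35, -0.57 and -0.01. At these times 18.7%, 28.9% and 7.67% of all tested genes were higher and 15.6%, 28.8% and 7.9% lower. The median over all tested genes was -0.02, 0.01 and 0.02. *Igf2bp2*, whose product binds *Igf2* mRNA, had 1615, 2178 and 1779 normalized reads in OE kidneys after 1 week, against 184, 195 and 179 in control kidneys. It was higher at all 3 times (log2 fold change 3.30, 3.30 and 1.61, adjusted p at most 2.27e-05 in limma), and after 5 weeks it had 431, 664 and 661 in OE kidneys, against 210, 181 and 173 in control kidneys. *Igf2bp3* was also higher at all 3 times (1.20, 1.54 and 1.23), and *Igf2bp1* after 1 and 2 weeks (1.06 and 2.14), with its 1-week call lost without OE replicate 3 (adjusted p = 0.0716). *Ghr*, the growth hormone receptor gene, was lower after 1 and 2 weeks (-1.40 and -2.58), and *Igfbp5*, which encodes an IGF binding protein, after 2 and 5 weeks (-3.29 and -1.95). *Pappa2*, whose product cleaves IGF binding proteins, had 547, 531 and 809.5 normalized reads in OE kidneys after 5 weeks, against 84.5, 102 and 34.8 in control kidneys (log2 fold change 3.18, adjusted p = 0.000557 in limma), and it was lower after 2 weeks (-1.81).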

How the data were processed

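The members and gene lists were chosen with earlier results of these data known. The authors sequenced single reads on an Illumina NextSeq, aligned them to mm10 with STAR, counted with HTSeq and divided the counts by DESeq2 size factors (versions and strand setting not given in the sources used here). The deposited signal values are thus normalized reads per gene and library, and dividing by the worth of 1 read recovered whole reads for 100% of values (tolerance 0.001). Values were tested as log2(value + 1), in 1 limma fit (version 3.58.1, R 4.3.3) with an intensity trend over 18 libraries and 6 groups, for genes with a mean above 10. Benjamini-Hochberg adjustment covered all genes tested, the threshold was 0.05, and tests were two-sided. Fold changes on this scale understate those of low genes. Alternatives were edgeR 4.0.16 (TMM) and DESeq2 1.42.0 on the recovered reads, pseudocounts of 0.5 and 5, no filter, a minimum mean of 50, upper-quartile scaling, a robust fit, *Xist* as covariate, the replicate number as block, only the groups compared, and leaving out each library. All members were named; from the other lists, the 4 called genes with the largest change per comparison and called genes against the list's main direction could be named, with *Igf2bp3* at 5 weeks and *Pappa2* at 2 weeks added after their values were seen. Gene positions and exon lengths came from GENCODE vM21 (99.5% of IDs matched) and sequences from RefSeq tables. The fit was tested on simulated data. Python 3.11.15 with matplotlib 3.10.9 made the plots.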

Additional observations from a re-analysis of the deposited data

Results flagged for a closer look

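Several changes of the imprinted genes differed between the durations of Dox, by a limma test of the difference between log2 fold changes (adjusted p under 0.05 over all genes). The change of *Meg3* was larger after 2 weeks than after 1 week by 3.04. After 5 weeks, compared with 1 week, the difference was -5.71 for *H19*, -2.59 for *Igf2*, -2.18 for *Cdkn1c* and -2.03 for *Plagl1*. After 5 weeks, compared with 2 weeks, it was -6.90 for *H19*, -4.28 for *Dlk1*, -3.73 for *Igf2*, -2.57 for *Meg3*, -1.99 for *Plagl1* and -1.63 for *Cdkn1c*, and 0.94 for *Igf2r*. The *Igf2r* difference was not called in 12 alternatives (adjusted p between 0.0519 and 0.105).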

How the results depend on the processing

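Of 550 values of the members in OE against control kidneys over all alternatives, 514 kept their direction and side of the threshold, 18 lost the call, 13 gained it and 5 changed sign. The number of members called after 5 weeks was 3; it ranged between 2 and 6 when 1 library was left out (6 without OE replicate 1) and was 5 without both 5-week libraries numbered 1, an alternative chosen after seeing the data. The number called between 2 weeks and 1 week was 1, ranged between 1 and 2 when 1 library was left out (2 without OE replicate 1 of week 2) and was 2 with DESeq2. The number called among controls, 2 weeks against 1 week and 5 weeks against 2 weeks, ranged between 0 and 1 (1 without control replicate 1 of week 2). The cause was not tested. The fits over libraries with *Xist* below 100, also chosen after seeing the data, held 2, 1 and 2 OE and 3, 2 and 2 control libraries of weeks 1, 2 and 5, so the lone OE library of week 2 is assumed to vary like the other groups; there *Dlk1* (3.12, adjusted p = 0.1) and *Grb10* (0.35, adjusted p = 0.132) of week 2 were not called, and *Mest* of week 1 was called (-1.29, adjusted p = 0.021).

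The labels number the replicates 1 to 3 in every group. Deviations of libraries with the same number correlated between -0.19 and 0.21, so the numbers were not taken as pairs. With the number as a block, 6, 10 and 4 members were called after 1, 2 and 5 weeks, beside 5, 9 and 3, the added ones being *Mest* after 1 week and *Cdkn1c* after 2 and 5 weeks; over all genes 5703, 9767 and 2547 were called with the block, beside 5828, 9801 and 2643.

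Sign changes touched only values that were not called with all libraries. *Dlk1* in OE against control kidneys of week 5 was 0.10 in edgeR and 0.084 in DESeq2 and ranged between -1.70 and 0.26 when 1 library was left out. *Plagl1* in the same comparison ranged between -0.17 and 0.056. The difference of the *Plagl1* change between 2 weeks and 1 week was 0.036 with upper-quartile scaling and 0.0018 in edgeR, and ranged between -0.23 and 0.15. The difference of the *Mest* change between 5 weeks and 1 week was -0.28 without both libraries numbered 1 and ranged between -0.27 and 0.60.

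Among the controls, *Dlk1* between 2 weeks and 1 week was -0.057 with a pseudocount of 5, -0.015 with the *Xist* covariate, -0.32 in edgeR, -0.30 in DESeq2 and -0.28 with *Xist* below 100, and ranged between -0.81 and 0.51. *Dlk1* between 5 weeks and 1 week was -0.0015 in edgeR and -0.33 without both libraries numbered 1, and ranged between -0.645 and 0.68; between 5 and 2 weeks it was -0.33 and ranged between -0.33 and 0.57. *H19* between 5 weeks and 1 week was 0.10 with the *Xist* covariate, 0.13 in edgeR, 0.13 in DESeq2 and 0.30 with *Xist* below 100, and ranged between -0.84 and 0.30. Without both libraries numbered 1, 5 weeks against 1 week was -0.057 for *Grb10* (range -0.093 to 0.063), -0.13 for *Igf2* (-0.13 to 0.35) and -0.023 for *Plagl1* (-0.023 to 0.21). *Plagl1* between 2 weeks and 1 week ranged between -0.16 and 0.047, and *Igf2r* between -0.17 and 0.35. *Mest* between 5 and 2 weeks was -0.21 with *Xist* below 100 and ranged between -0.032 and 0.37.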

Other observations

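Of 30 tested imprinted genes outside the clusters of the members, 5, 8 and 3 were higher in *Lin28A* OE kidneys and 6, 11 and 2 lower after 1, 2 and 5 weeks of Dox, with median log2 fold changes of 0.02, -0.06 and -0.10. Over all tested genes 18.7%, 28.9% and 7.67% were higher and 15.6%, 28.8% and 7.9% lower, so these counts lie near the background. *Nap1l5*, a gene of the nucleosome assembly protein family, had 2.67, 13.4 and 12.95 normalized reads in OE kidneys after 2 weeks, against 325, 131 and 98.0 in control kidneys. It was lower at all 3 times (log2 fold change -2.04, -4.17 and -1.70, adjusted p = 0.00812, 6.15e-06 and 0.043 in limma), but the 5-week call was lost in 10 alternatives, among them each fit that left out 1 library of that week (adjusted p between 0.0527 and 0.134). *Dcn*, which encodes the matrix proteoglycan decorin of fibroblasts, was higher at all 3 times (1.17, 1.70 and 2.34), with the 1-week call lost without OE replicate 3 or control replicate 2 (adjusted p = 0.0613 and 0.058). It had 10233, 9107 and 7710 normalized reads in OE kidneys after 5 weeks, against 2552, 1638 and 1330 in control kidneys. *Asb4*, a suppressor of cytokine signalling box gene, was higher too (1.53, 1.51 and 3.11), although the call of week 1 was lost in 6 alternatives (adjusted p up to 0.104) and that of week 2 in 4 (0.0529 to 0.0862). It had 20.7, 50.5 and 52.7 in OE kidneys after 5 weeks, against 1.06, 6.38 and 5.11 in control kidneys. After 2 weeks *Zdbf2* (2.11) and *Calcr* (1.61) were higher and *Tfpi2* (-2.68) was lower.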
